A study of Mus musculus with 12 samples.

Results

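B16F10 melanoma cells sorted from relapsed mouse tumors (Tumor) were compared with B16F10 cells incubated in culture with granules released by T cells (Lyso), to ask which gene programs separate tumor cells in the animal from the granule response in a dish. The comparison took 6 of the 12 RNA-seq libraries of the study, 3 Tumor libraries (1, 3 and 4) and 3 Lyso libraries (1, 2 and 3), and covered every expressed gene, 14924 in all. Tumor cells had been injected subcutaneously into C57BL/6 mice of 6 weeks, treated with a dendritic cell adjuvant (TNFα and an agonistic anti-CD40 antibody) and the tumor-binding antibody anti-TRP1, recovered by enzymatic digestion and cell sorting, and lysed for RNA at once. Lyso cells are the same line, kept in culture and given granules that the labels call T cell derived lysosomes, from CD8+ T cells activated with anti-CD3, anti-CD28 and IL-2. The labels give an incubation of 48 hours, while the study's methods describe a much shorter one for these cells, so the time of the granule response is uncertain. Those methods also put the Lyso cells on coated plates of low adherence, and the labels give the strain C57BL/6 and the age of 6 weeks for all groups. Untreated B16F10 cells (WT) and lines grown from relapsed tumors and kept in culture (ITF1, ITM and Rel, here Relapsed), with 3 libraries each, served as references in the same fit. Nothing in the labels says whether libraries of a group came from separate animals or cultures, and B16F10 is a single line.

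Granules of cytotoxic T cells carry perforin and granzymes, which enter a target cell and start its death, and activated T cells also release interferon-gamma. Interferon-gamma acts through JAK kinases and switches on a broad set of genes, among them guanylate-binding proteins, the antigen presentation machinery and the checkpoint ligand PD-L1. Cells in a solid tumor face other conditions as well: low oxygen, a collagen-rich matrix, and neighbours that are fibroblasts, vessels and leukocytes. Melanoma cells are recognised by pigment genes such as Dct and Tyrp1 and by the lineage factor Sox10.

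Lyso libraries held 10895611 to 12675277 counts on genes and Tumor libraries 3102442 to 5049496, so depth and group cannot be told apart. A count of 3 in a library, the floor used here, stood for 0.237 to 0.275 CPM, counts scaled to a common library total, in Lyso and 0.594 to 0.967 CPM in Tumor; floors cover counting error only. The mitochondrial share of counts was 6.079% to 8.526% in Lyso and 2.695% to 3.097% in Tumor. Lyso 2 and Lyso 3 were close to counting noise (chi-square of 1.59 per degree of freedom, against 12.86 and 13.25 for Lyso 1 with either) but did differ, and they were counted as separate samples. The Tumor libraries gave 3.89 to 6.25 per degree of freedom among themselves.

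A total of 1311 genes were higher in Tumor than in Lyso and 618 were lower, which is 8.78% and 4.14% of the genes tested (edgeR adjusted p under 0.05 and a log2 fold change over 1 in size). Over all genes the median log2 fold change was 0.004. The difference was broad: the Tumor and Lyso libraries did not overlap at all for 54.9% of the genes tested, and 5529 had an unadjusted p under 0.05. Genes higher in Tumor were at low levels in culture. Their median level was 10.2 CPM in Tumor against 0.895 CPM in Lyso and 0.934 CPM in WT, and for 407 of the 1311 no Lyso library exceeded the floor. Genes lower in Tumor had a median of 5.67 CPM there, 17.7 CPM in Lyso and 9.18 CPM in WT. For comparison, the same fit put 8.56% of genes above and 2.2% below WT in Tumor, and 2.43% above and 0.576% below WT in Lyso. The comparisons share libraries, so their values are set side by side only.

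**Figure D1:**
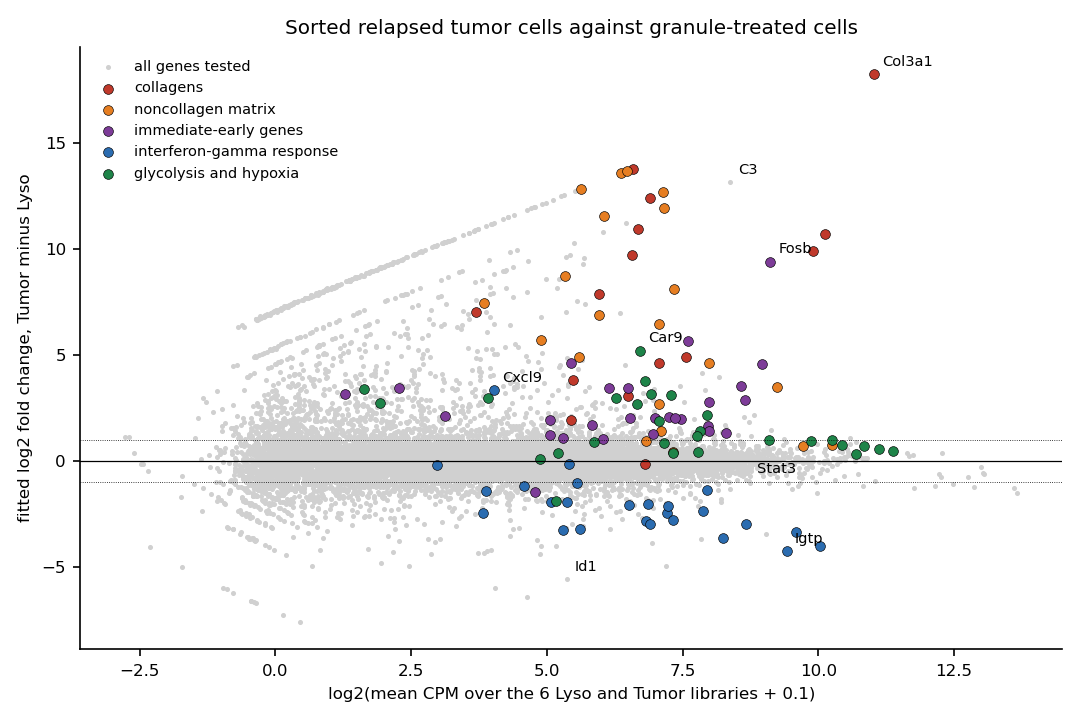
Fitted log2 fold change (Tumor minus Lyso) of the 14924 genes against log2 of their mean CPM plus 0.1 over the 6 libraries, with members of 5 lists coloured and dotted lines at a change of 1. Collagen and matrix genes reach the top, interferon-gamma genes lie below 0 except Cxcl9, and straight upper lines are genes at the floor in Lyso, whose fitted values are no bounds.

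Both groups were melanoma cells by their pigment genes. Dct, the pigment enzyme TRP2, had 8451, 9074 and 9344 CPM in Lyso 1, 2 and 3 and 7471, 7560 and 7208 CPM in Tumor 1, 3 and 4. Sox10 had 681.9 ± 102.5 CPM across Lyso libraries and 568.1 ± 12.65 CPM across Tumor libraries (SD, n = 3 for each), a log2 fold change (Tumor minus Lyso) of -0.26 with an adjusted p of 0.171 from edgeR's quasi-likelihood test. Of 16 pigment and lineage genes tested, 1 was higher and 1 lower in Tumor, with a median of -0.32. Their summed level was lower in Tumor without overlap (31950 to 32780 CPM in Lyso, 21960 to 24230 CPM in Tumor). WT sums were 21000 to 30120 CPM. Among the single genes, 14 of 16 did not overlap, against 54.9% of all genes tested. The lower one, Gpr143, a receptor of the pigment granule, had 107.2 ± 5.89 CPM across Lyso libraries and 34.74 ± 4.82 CPM across Tumor libraries (SD, n = 3 for each).

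The Tumor libraries also held transcripts of other cell types. Summed over 10 fibroblast markers, the level was 10.61 to 12.35 CPM in Lyso, 14.36 to 20.38 CPM in WT and 6056 to 8326 CPM in Tumor, and all 10 were higher in Tumor. Only 4 of the 10 exceeded the floor in every Lyso library, and 3 of them (Col3a1, Dpt and Mfap5) had no count in Lyso. Macrophage markers summed to 33.53 to 37.26 CPM in Lyso and 60.13 to 86.86 CPM in Tumor, with 6 of 9 tested higher. Among these, C1qa, C1qb and C1qc, subunits of complement C1q, had no count in any Lyso library. Ptprc, Csf1r and Cd68 were not called. Cd68 pointed lower in Tumor, with log2 fold changes of -1.18 to -0.91 when any 1 library was left out. Endothelial markers gave 5 of 9 tested higher, among them Kdr, Tek and Cdh5, all without a count in Lyso, although their sum was lower in Tumor (273.7 to 314.2 against 452.1 to 557.9 CPM) and Eng, which the cultured B16F10 cells also express, made up most of it (427.6 to 532.5 CPM in Lyso, 227.4 to 277 CPM in Tumor). Pericyte markers gave 4 of 7 tested higher, at sums of 35.54 to 46.81 CPM in Tumor. Neutrophil markers stayed at 0.975 to 1.648 CPM in Tumor, and none of the 8 was expressed enough to be tested. These sums separate the groups completely for fibroblasts, pericytes, endothelial cells, macrophages and neutrophils, for which p was 0.1 in an exact two-sided permutation test, which cannot go lower with 3 libraries a group. In bulk libraries, fewer cells of a type and less of its RNA per cell cannot be told apart, and the part of such cells in the results that follow was not tested.

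**Figure D2:**
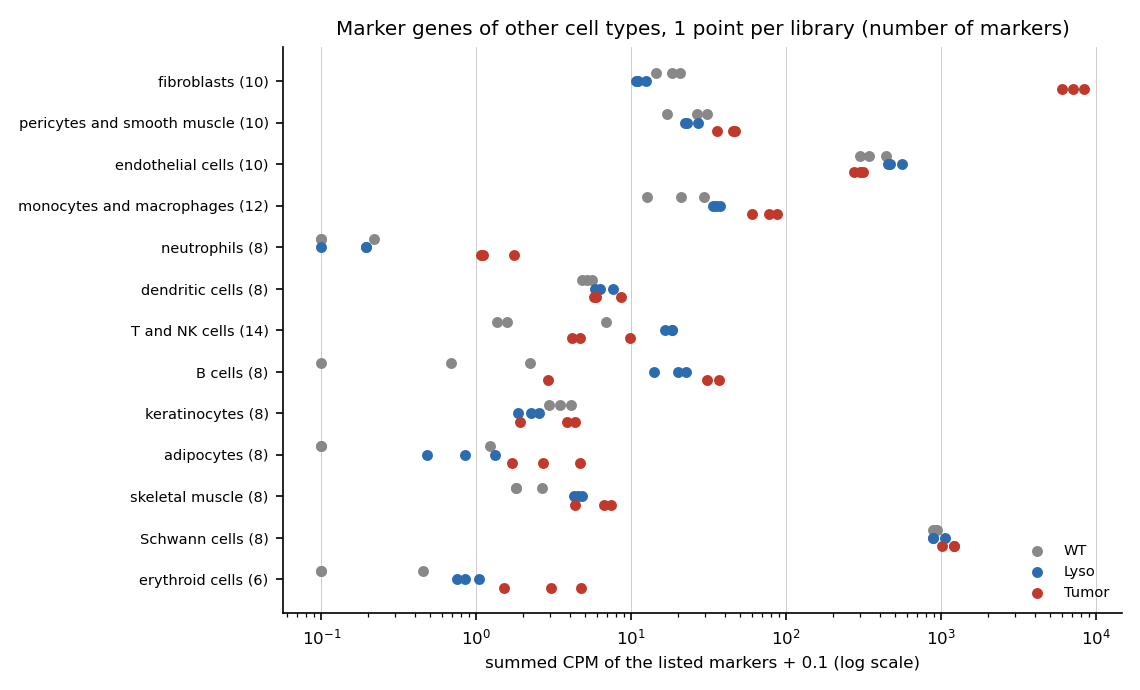
Summed level of marker genes for 13 other cell types, 1 point per library, in CPM plus 0.1 on a log axis. The 3 Tumor libraries lie at 6056 to 8326 CPM for fibroblast markers, far right of all Lyso and WT libraries, while Lyso lies highest for T and NK cell markers, at 16.44 to 18.16 CPM.

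T cell transcripts moved the other way. Gzmb, which encodes granzyme B, had 6.03, 6.71 and 5.10 CPM in Lyso and 0.325, 0 and 0.706 CPM in Tumor, and it had no count in WT. Cd8b1, a chain of the CD8 co-receptor, had 1.23, 1.30 and 1.30 CPM in Lyso and no count in Tumor or WT. These were the 2 T and NK cell markers of 4 tested that were lower in Tumor, and 3 of the 4 were higher in Lyso than in WT. The 14 markers summed to 16.44 to 18.16 CPM in Lyso and 4.03 to 9.65 CPM in Tumor. A rise in Lyso over WT was not particular to T cell markers. Of 6 B cell markers tested, 4 were higher in Lyso than in WT, with sums of 13.85 to 22.54 and 0 to 2.11 CPM. They summed to 2.82 to 36.49 CPM in Tumor, and none was called between Tumor and Lyso.

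**Figure D3:**
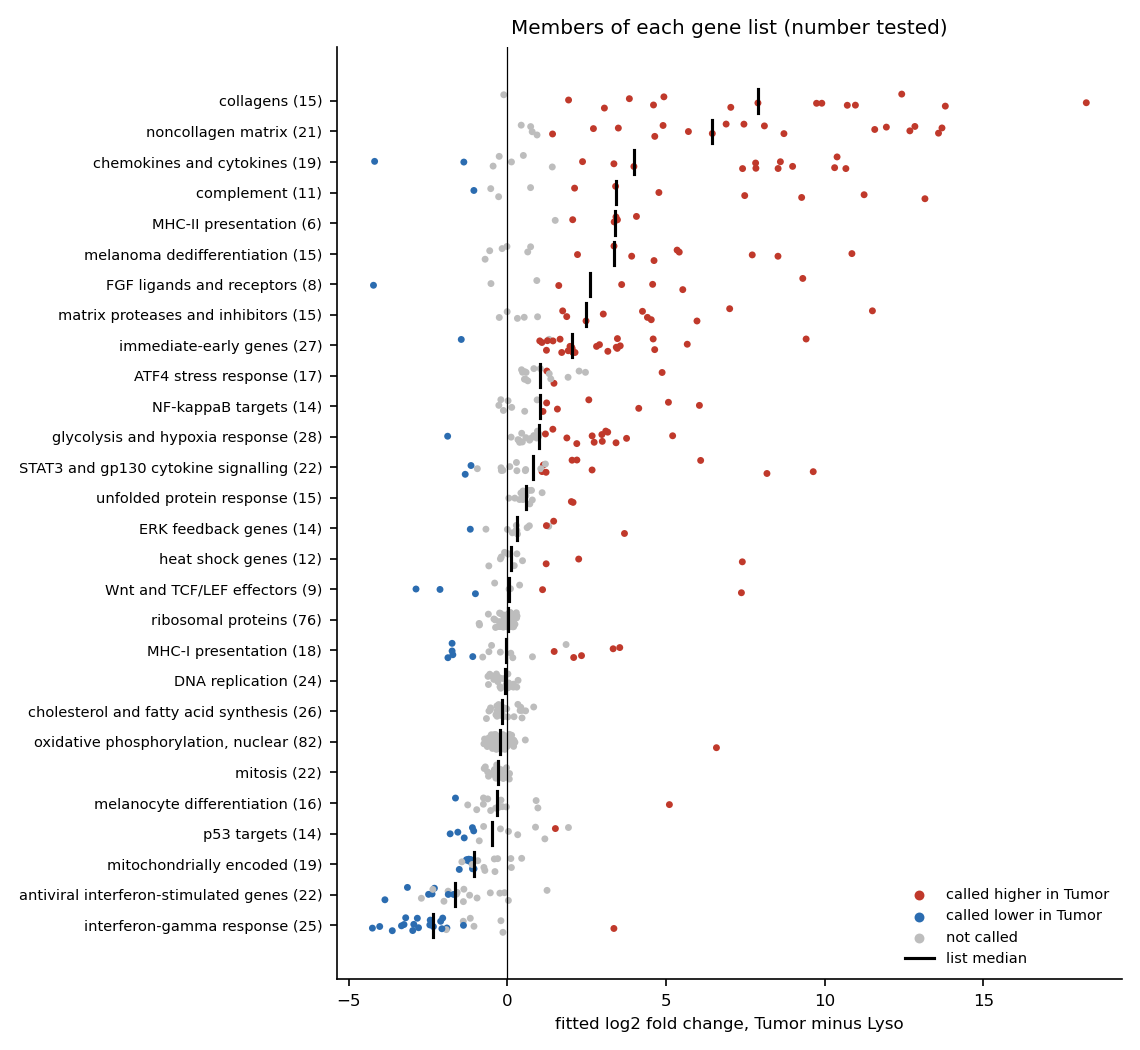
Fitted log2 fold change (Tumor minus Lyso) of each tested member of 28 gene lists, ordered by list median (black bars), with called members in red (higher) and blue (lower). Medians run from 7.90 for collagens to -2.33 for the interferon-gamma response, and the lists for ribosomal proteins, DNA replication, mitosis and cholesterol synthesis hold no called member.

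Extracellular matrix genes showed the widest separation. Of 15 collagen genes tested, 14 were higher in Tumor and none lower, with a list median of 7.90 on the log2 scale. Col3a1, a fibrillar collagen (chromosome 1 of GRCm38, 45311538 to 45349706), had no count in any Lyso library and 4938, 4157 and 3369 CPM in Tumor 1, 3 and 4, at least 15600-fold higher when set against the floor of 3 counts. Col1a1, the main chain of collagen I (chromosome 11, 94936224 to 94953042), had 1.79, 1.30 and 0.891 CPM in Lyso and 2655, 2096 and 1922 CPM in Tumor, a log2 fold change of 10.71 (standard error, SE, of 0.37 and an edgeR adjusted p = 2.31e-09). Col1a1 was low in every cultured group, with 3.80 to 4.72 CPM in WT and a mean of 1.94 CPM in Relapsed, and Lyso lay below WT (log2 fold change -1.76). The exception was Col16a1, with 115.6 ± 8.02 CPM across Lyso libraries and 107.3 ± 16.5 CPM across Tumor libraries (SD, n = 3 for each), overlapping ranges and an adjusted p of 0.692 in the edgeR fit.

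Of 21 noncollagen matrix genes, 17 were higher and none lower, with a median of 6.46. Dcn, the collagen-binding proteoglycan decorin, had 271.4, 300.1 and 285.8 CPM in Tumor and at most 0.162 CPM in a Lyso library, at least 1070-fold higher. Tnc, which encodes tenascin C, and Lox, a collagen cross-linking oxidase, had no count in Lyso or WT and means of 165.4 and 178.4 CPM in Tumor. Matrix genes that Lyso cells did express moved less. Fn1, fibronectin, went from 98.69 ± 11.1 to 1116 ± 92.0 CPM (SD, n = 3 for each), a log2 fold change of 3.50. Fstl1, a secreted glycoprotein, had 19.41 ± 1.90 CPM across Lyso libraries and 486.4 ± 79.8 CPM across Tumor libraries (SD, n = 3 for each). Some members that were not called were abundant in both groups: Sparc had 899.5 and 1551 CPM on average in Lyso and Tumor (log2 fold change 0.79, adjusted p = 0.111, edgeR) and Serpinh1, the collagen chaperone, 628.5 and 1048 CPM (0.74). Among 15 proteases and inhibitors of the matrix tested, 10 were higher and none lower. The stromelysin gene Mmp3 had no count in Lyso and 31.21, 44.28 and 40.96 CPM in Tumor, at least 145-fold higher, and Mmp9 was at least 37.9-fold higher. Mmp2 and Adamts5, which Lyso cells did express, were higher by 4.54 and 4.26 on the log2 scale. Col1a1, Col3a1, Dcn and Lum are in the matrix and the fibroblast lists alike, and the fibroblast markers that are no matrix genes moved as well: Pdgfra, the receptor that marks fibroblasts, had 0.998 ± 0.296 CPM across Lyso libraries and 43.3 ± 10.9 CPM across Tumor libraries (SD, n = 3 for each).

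Complement, chemokine and inflammatory genes were higher in Tumor too. C3, the central complement component (chromosome 17, 57203970 to 57228136), had 0.094, 0.093 and 0 CPM in Lyso and 474.9, 753.6 and 766.9 CPM in Tumor, at least 2490-fold higher, and 7 of 11 complement genes tested were higher against 1 lower, Cd59a, which lost its call whichever library was left out. C4b was present in Lyso at 21.64 ± 0.525 CPM (SD, n = 3), 5.98 above WT on the log2 scale, and reached 230.3 ± 35.5 CPM (SD, n = 3) in Tumor. Of 19 chemokines and cytokines, 12 were higher and 2 lower, with a median of 3.99, or 3.36 with genes at the floor set to their bound. Cxcl1, which attracts neutrophils, had 0.471, 0.559 and 0.729 CPM in Lyso and 114.4, 101.4 and 93.92 CPM in Tumor, a log2 fold change of 7.41 (SE 0.27, edgeR adjusted p = 2.67e-09). Ccl2, which attracts monocytes, and Cxcl12, a stromal chemokine, were at least 139-fold and 279-fold higher.

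The 2 lower genes had risen in Lyso. Cx3cl1, a membrane-bound chemokine, had 33.75, 26.83 and 28.1 CPM in Lyso against 1.30, 1.61 and 1.88 CPM in Tumor (log2 fold change -4.18, SE 0.42, edgeR adjusted p = 1.88e-05) and 2.26 to 2.77 CPM in WT. Csf1, the macrophage growth factor, had 147.1 ± 5.58 CPM across Lyso libraries, 57.07 ± 4.45 CPM across Tumor libraries (SD, n = 3 for each) and 16.89 to 42.58 CPM in WT. Targets of NF-kappaB gave 7 higher of 14 tested and none lower. Tnfaip3, the ubiquitin-editing inhibitor A20, had 0.961 ± 0.242 CPM across Lyso libraries and 32.63 ± 5.18 CPM across Tumor libraries (SD, n = 3 for each), whereas Nfkb1 itself had 67.96 and 69.27 CPM on average (adjusted p = 0.893, edgeR).

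Immediate-early genes, transcription factors and feedback regulators that cells switch on within minutes of a stimulus, were nearly all higher in Tumor. Of 27 tested, 25 were higher in Tumor and 1 was lower, with a median of 2.04 on the log2 scale. Fosb, a subunit of AP-1 (chromosome 7), had 1.89, 1.49 and 1.46 CPM in Lyso and 1228, 903.6 and 1184 CPM in Tumor, a log2 fold change of 9.41 (SE 0.44, edgeR adjusted p = 2.06e-08). Dusp1, a phosphatase that switches off MAP kinases, had 14.99, 14.44 and 15.39 CPM in Lyso and 152.5, 154 and 190.7 CPM in Tumor, a log2 fold change of 3.47 (SE 0.14, edgeR adjusted p = 4.73e-09). Both sets of libraries were tight and far apart, and WT lay near the Lyso level for Dusp1 (14.78 to 16.33 CPM). For Fosb, WT (2.26 to 4.95 CPM) lay above every Lyso library and far below Tumor. Its Lyso-to-WT change of -1.37 on the log2 scale was not called (adjusted p = 0.124, edgeR). Klf4 rose by 5.67, Klf2 by 4.64, Jun by 3.56, Nr4a2 by 3.43 and Nr4a1 by 2.91 in the same contrast. For Jund and Fosl1, exons on the other strand cover 52.6% and 57.2% of the exonic sequence, and the counts are uncertain.

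The granule response held part of this program. Against WT, 7 of the 27 genes were higher in Lyso and 25 were higher in Tumor. Egr1, an early growth-response factor, had 2.83, 4.22 and 3.24 CPM in WT, 81.74, 54.31 and 56.04 CPM in Lyso and 261.3, 239.9 and 286.2 CPM in Tumor. Its Lyso-to-WT change was 4.24 on the log2 scale and its Tumor-to-Lyso change 2.04 (SE 0.53, edgeR adjusted p = 0.014). The Tumor call was lost without Lyso 2 or without Lyso 3 (largest adjusted p 0.059, edgeR). Junb, Maff, Zfp36, Egr2 and Nr4a3 were likewise higher in Lyso than in WT, and all but Nr4a3 (adjusted p = 0.0623, edgeR) were higher again in Tumor. Dusp2, a phosphatase of nuclear MAP kinases, was the gene that ran against the rest, with 36.2, 41.92 and 41.46 CPM in Lyso, 18.53, 13.49 and 12.24 CPM in Tumor and 11.32 to 16.45 CPM in WT. The number of immediate-early genes higher in Tumor was 22 to 24 with any 1 library left out, and 16 with glmTreat, which tests for a change beyond 1 on the log2 scale. Tumor cells were digested with enzymes and sorted before lysis and Lyso cells were not, so that handling and growth in the animal cannot be told apart. Of 12 heat shock genes tested, 3 were higher and none lower, with a median of 0.12 and sums of 6824 to 7141 CPM in Lyso and 7391 to 8089 CPM in Tumor. The stress-inducible Hspa1a had no count in Lyso and 1.95, 2.42 and 2.35 CPM in Tumor, at least 8.39-fold higher. Hspb1 was higher by 2.25 and Hspa1b by 1.23, the latter losing its call without any 1 of Lyso 1, Lyso 2 or the Tumor libraries. The abundant Hspa8 and Hsp90ab1 had adjusted p-values of 0.962 and 0.271 (edgeR).

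Promoter sequence was read from RefSeq on GRCm38.p6 for the 250 bases before each transcription start. It is shown for Dusp1, the immediate-early gene with the smallest p (chr17:26508473-26508722, minus strand), with a full cyclic AMP response element, TGACGTCA, in capitals 143 bases before the start.
Dusp1: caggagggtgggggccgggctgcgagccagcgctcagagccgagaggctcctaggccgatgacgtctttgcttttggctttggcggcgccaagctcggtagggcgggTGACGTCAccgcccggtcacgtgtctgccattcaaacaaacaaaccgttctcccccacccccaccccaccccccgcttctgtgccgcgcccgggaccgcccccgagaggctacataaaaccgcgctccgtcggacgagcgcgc
This palindrome was found in 3 of the 23 immediate-early genes with a promoter in the table (Btg2, Dusp1 and Maff) and in 1.55% of all 32851 promoters of that length. A gene was counted if any of its promoters held the letters, while the percentage is of single promoters, so the units differ. The AP-1 motif TGACTCA was found in none of the 23 and in 4.46% of all, searched on both strands like the others. A match is a run of letters and not a measured binding site.

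**Figure D4:**
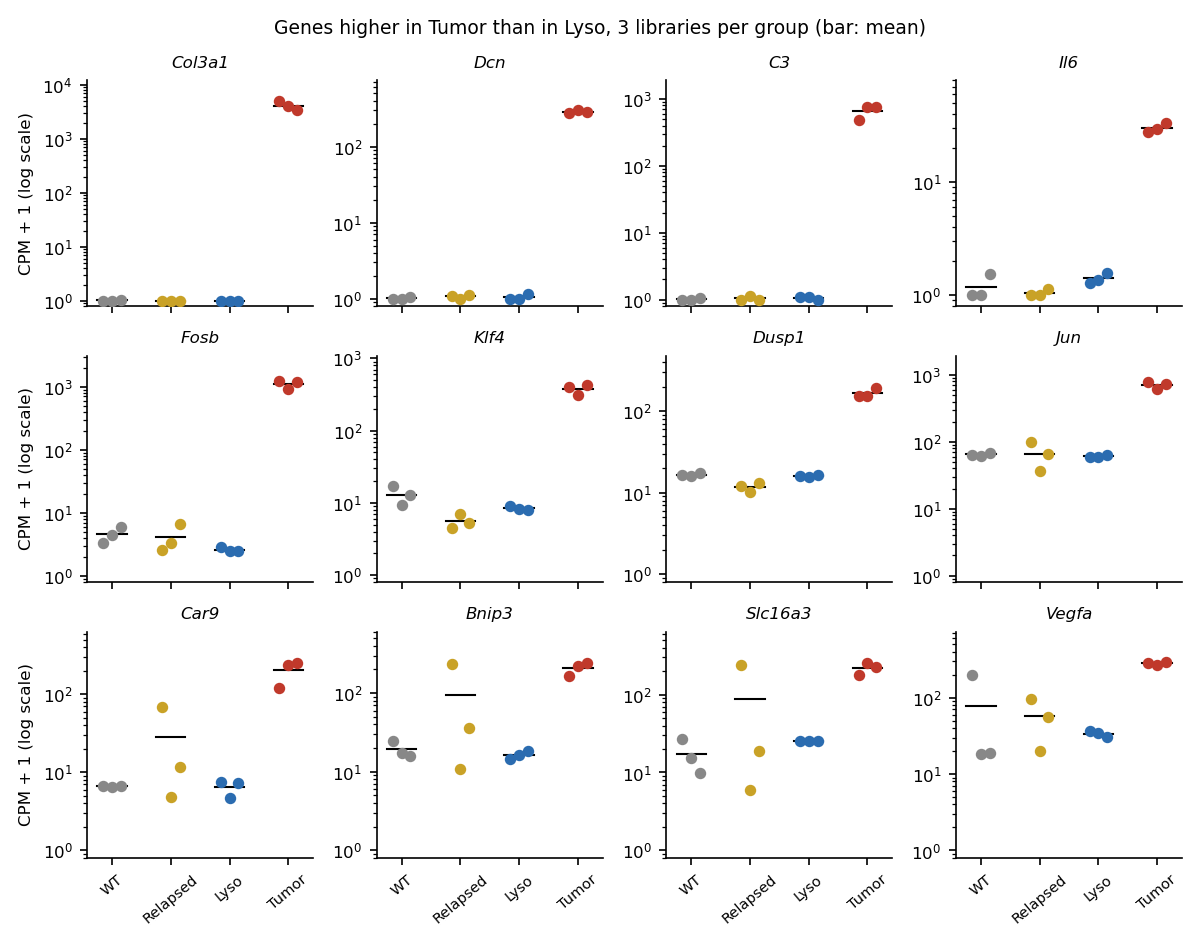
Level of 12 genes that were higher in Tumor than in Lyso, in CPM plus 1 on a log axis, 1 point per library and a bar at the mean of each group. All Tumor points lie above all Lyso points in every panel, and for Col3a1, Dcn, C3 and Il6 the cultured groups lie near 0 CPM.

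The interferon-gamma response ran the opposite way. Of 25 genes tested, 18 were lower in Tumor than in Lyso and 1 was higher, with a median of -2.33. Igtp, an interferon-inducible GTPase (chromosome 11, 58199556 to 58207591), had 1246, 1306 and 1347 CPM in Lyso and 14.3, 39.45 and 149.9 CPM in Tumor, a log2 fold change of -4.25 (SE 0.86, edgeR adjusted p = 0.00303). Irf1, a transcription factor at the head of the response, had 657.8, 745.8 and 758.4 CPM in Lyso and 35.43, 64.61 and 173.2 CPM in Tumor (log2 fold change -2.98, SE 0.48, edgeR adjusted p = 0.00067). Lyso values lay within a narrow band, while Tumor 1 was lowest and Tumor 4 highest for both genes. Gbp2, a guanylate-binding protein, fell by 4.02 on the log2 scale, Socs1, the feedback inhibitor of JAK kinases, by 3.20 and Stat2 by 2.83.

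Most of these genes lay above untreated cells in both states. Of the 25 genes, 22 were higher in Lyso than in WT and 15 were higher in Tumor than in WT, with list medians against WT of 5.43 and 2.91. Irf1 had 4.53, 8.02 and 17.87 CPM in WT, below every Tumor library. Cd274, which encodes PD-L1, had 186.4, 188.9 and 187.6 CPM in Lyso, 24.38, 37.24 and 74.85 CPM in Tumor and 4.53 to 8.37 CPM in WT, so it was lower in Tumor than in Lyso (log2 fold change -2.03, adjusted p = 0.00988, edgeR) and higher than in WT (2.73). That call between Tumor and Lyso was lost without Tumor 3 (adjusted p = 0.0514, edgeR).

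The number of lower genes depended on single Tumor libraries. It was 7 without Tumor 3, 11 without Tumor 1 and 21 without Tumor 4, against 18 with all 3, and it was 7 with glmTreat. DESeq2 gave 8, with members that had no adjusted p there counted as not called. Among members with an adjusted p in DESeq2, those that lost the call were Ciita, Gbp7, Ifi47, Iigp1, Irf8 and Tgtp2. Tumor libraries were far apart for single genes: Gbp4 had 6.18, 16.91 and 97.45 CPM in Tumor 1, 3 and 4, on either side of 41.55 to 48.9 CPM in Lyso. Antiviral genes that type I interferon also induces gave 7 lower of 22 tested and none higher, with a median of -1.65, and Mx1, a GTPase against viruses, had 38.09, 40.43 and 42.36 CPM in Lyso and 3.90, 4.03 and 5.65 CPM in Tumor. The 7 became 3 without Tumor 1, Tumor 3, Lyso 2 or Lyso 3, 2 with glmTreat or DESeq2, 11 with the replicate number as a block, and 16 when only the compared groups were fitted or no filter on low counts was used. In DESeq2, Zbp1 and Ifit1 lost their call with an adjusted p given. The other losses there were members without an adjusted p, which were counted as not called. Against WT, 4 of these 22 were higher in Lyso and 2 in Tumor.

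Cxcl9, a chemokine for activated T cells that interferon-gamma induces, was the gene of the list that was higher in Tumor. It had 2.83, 3.17 and 2.67 CPM in Lyso and 17.88, 22.95 and 48.02 CPM in Tumor, without overlap (log2 fold change 3.36, SE 0.36, edgeR adjusted p = 3.18e-05), and at most 0.059 CPM in WT. Cxcl10, its relative, went the other way, with 351.1, 346.3 and 371.4 CPM in Lyso and 101.1, 99.43 and 210 CPM in Tumor; that call was lost without Tumor 1, Tumor 3 or Lyso 3 (largest adjusted p 0.0862, edgeR).

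Promoters of Igtp (chr11:58199306-58199555, plus strand) and Irf1 (chr11:53769764-53770013, plus strand) are shown as genes that fell, and that of Cxcl9 (chr5:92328080-92328329, minus strand) as the gene that rose, each as the 250 bases before the RefSeq start on GRCm38.p6. Capitals mark the STAT-binding motif TTCNNNGAA, the gamma-activated site, which starts 45 bases before the start in Igtp and 90 bases before it in Irf1.
Igtp: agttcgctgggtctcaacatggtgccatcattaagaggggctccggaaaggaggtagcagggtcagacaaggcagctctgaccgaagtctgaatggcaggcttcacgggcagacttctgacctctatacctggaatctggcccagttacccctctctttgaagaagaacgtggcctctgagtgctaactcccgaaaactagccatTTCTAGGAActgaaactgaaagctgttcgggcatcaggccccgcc
Irf1: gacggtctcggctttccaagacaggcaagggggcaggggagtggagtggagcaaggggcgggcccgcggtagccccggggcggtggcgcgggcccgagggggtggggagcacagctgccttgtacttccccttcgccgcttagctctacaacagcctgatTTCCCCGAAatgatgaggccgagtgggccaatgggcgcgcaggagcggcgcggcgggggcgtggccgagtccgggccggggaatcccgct
Cxcl9: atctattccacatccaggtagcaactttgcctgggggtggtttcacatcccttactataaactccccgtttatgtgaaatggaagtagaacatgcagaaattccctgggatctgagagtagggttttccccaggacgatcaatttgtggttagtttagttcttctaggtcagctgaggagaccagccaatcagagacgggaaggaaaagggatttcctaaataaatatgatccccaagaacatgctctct
The motif was found in 8 of the 19 interferon-gamma genes with a promoter in the table (Gbp5, Gbp7, Igtp, Irf1, Irf8, Irgm2, Tgtp1 and Tgtp2) and in 7.02% of all 32851 promoters. Here too genes were counted by any of their promoters, and the percentage is of single promoters. The window of Cxcl9 does not hold these letters, which says nothing on sites elsewhere. TGACTCA was found in 3 of the 19 and TGACGTCA in none.

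**Figure D5:**
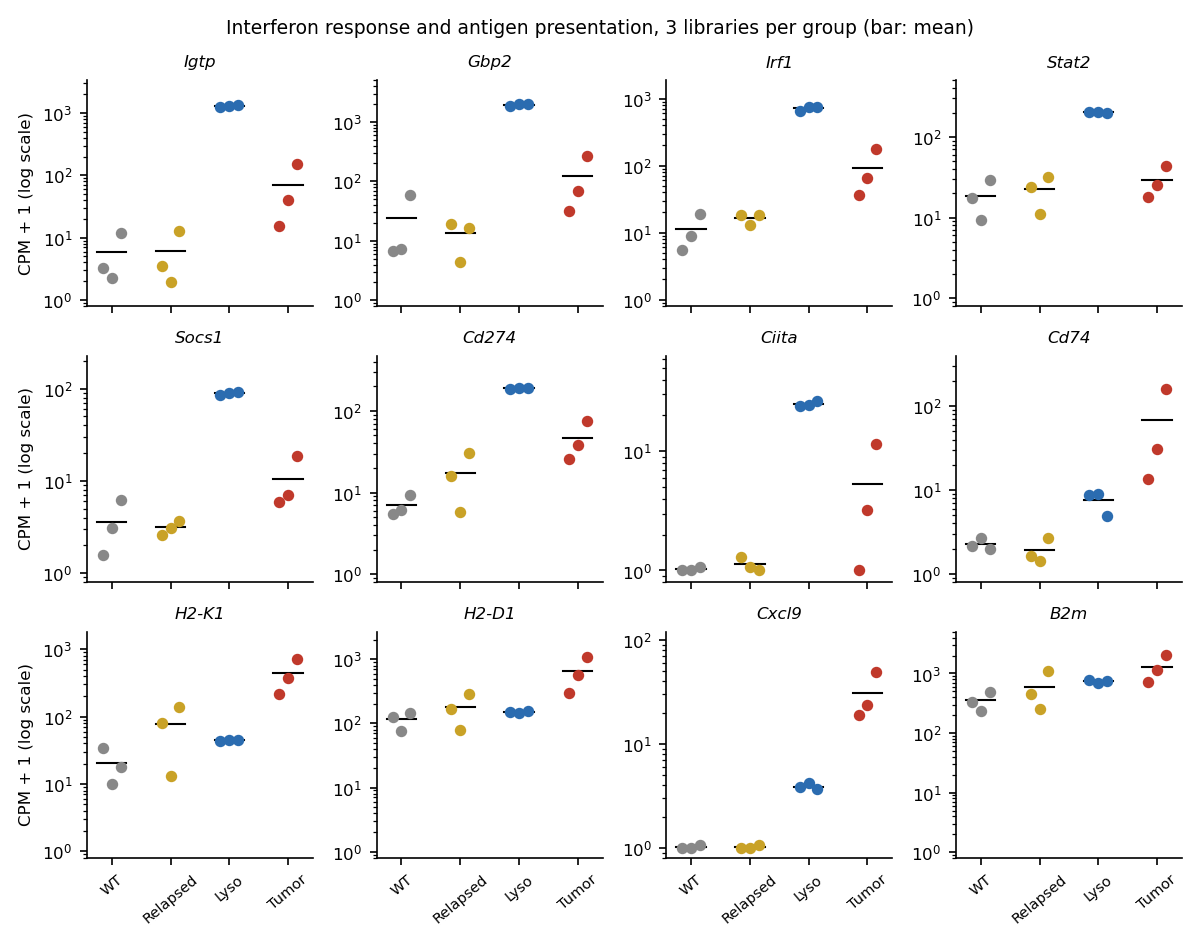
Level of 12 interferon and antigen presentation genes in CPM plus 1 on a log axis, 1 point per library and a bar at the mean of each group. In the first 7 panels, from Igtp to Ciita, all Lyso points lie above all Tumor points, while in those of Cd74, H2-K1, H2-D1 and Cxcl9 all Tumor points lie above all Lyso points.

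Antigen presentation genes moved in both directions. Of 18 MHC-I genes tested, 5 were higher and 5 lower in Tumor, with a median of -0.05. H2-Q4 lost its call without Lyso 1 or Tumor 4. All 5 higher ones were heavy chains, the peptide-holding subunits: H2-K1, H2-D1, H2-Q4, H2-Q6 and H2-Q7. The heavy chains H2-T22 and H2-T23 were not called (log2 fold changes -0.22 and 0.18). H2-K1 (chromosome 17) had 42.43, 44.15 and 44.06 CPM in Lyso and 219.1, 372.4 and 726.4 CPM in Tumor, a log2 fold change of 3.34 (SE 0.69, edgeR adjusted p = 0.00345), and H2-D1 rose by 2.09 (adjusted p = 0.00631, edgeR). Heavy chains are near copies of each other, and reads that match several are not counted, so their values are uncertain. The lower ones serve peptide supply and loading: Tap1, the peptide transporter (-1.71), Tapbp, its link to MHC-I (-1.74), Psmb10, an immunoproteasome subunit (-1.87), Erap1, the trimming peptidase (-1.09), and Nlrc5, the transactivator of the pathway (-1.74). Psmb8, another immunoproteasome subunit, pointed the other way, with 13.98, 37.84 and 128.5 CPM in Tumor against 16.12 to 17.51 CPM in Lyso (log2 fold change 1.85, adjusted p = 0.051, edgeR), and it was called higher without Tumor 1 and under 4 other settings.

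The lower calls were not stable. There were none without Tumor 3, 1 without Tumor 1 and 2 or 3 without any 1 Lyso library, while 6 were made without Tumor 4 and 9 with the replicate number as a block. B2m, the light chain, had 789.7, 698.1 and 735.8 CPM in Lyso and 711.9, 1138 and 2004 CPM in Tumor, ranges that overlap (adjusted p = 0.243, edgeR). Against WT, 13 of the 18 were higher in Lyso and 15 in Tumor. MHC-II genes, which professional antigen-presenting cells express and interferon-gamma can induce, gave 5 higher of 6 tested. Cd74, the invariant chain, had 7.83, 7.92 and 3.97 CPM in Lyso and 12.68, 29.99 and 159.1 CPM in Tumor, and the number of higher genes fell to 3 without Tumor 4. Ciita, which switches on MHC-II genes, was lower in Tumor all the same, with 23.19, 23.29 and 25.27 CPM in Lyso and 0, 2.21 and 10.59 CPM in Tumor (log2 fold change -2.43, adjusted p = 0.015, edgeR); it lost its call without Tumor 3. Tumor 4, the highest library for MHC-II, was also the highest for macrophage markers. These summed to 60.13, 76.69 and 86.86 CPM in Tumor 1, 3 and 4. The MHC-II list spread more widely, with sums of 28.28 to 383.7 CPM in Tumor. B cell markers summed to 2.818 to 36.49 CPM in Tumor and 13.85 to 22.54 CPM in Lyso. The part of either cell type in the result was not tested.

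Stat3, the transcription factor downstream of gp130, the receptor chain of the interleukin-6 family, was higher than in WT in both states. It had 46.98, 52.35 and 62.04 CPM in WT, 553.8, 555.3 and 553.1 CPM in Lyso and 276.3, 279 and 310 CPM in Tumor. Lyso exceeded WT by 3.35 and Tumor exceeded WT by 2.40 on the log2 scale, and the states differed by -0.94 (SE 0.16, edgeR adjusted p = 0.00122), without overlap but short of the fold threshold. Socs3, the feedback inhibitor that STAT3 induces, had 104.3, 109.9 and 105.4 CPM in Lyso and 64.69, 102.7 and 122.4 CPM in Tumor, overlapping ranges with a difference of -0.14 (SE 0.22, edgeR adjusted p = 0.694). Of 22 genes of the pathway, 9 were higher and 2 lower in Tumor. Il6, the ligand, had 0.283 to 0.567 CPM in Lyso and 26.65 to 32.01 CPM in Tumor (log2 fold change 6.09), Il6st, which encodes gp130, rose by 1.14, and Serpina3n, an acute-phase protease inhibitor, was at least 305-fold higher. The lower ones were Pim3 (-1.14) and Cish (-1.32), a kinase and a feedback inhibitor downstream of cytokine receptors; the call for Cish was lost in 5 of the 6 fits without 1 library.

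Tcf7, a transcription factor of T cells and the Wnt pathway, had 126.2, 118.6 and 103.7 CPM in Lyso, 17.55, 22.74 and 39.31 CPM in Tumor and 6.37 to 8.87 CPM in WT (Tumor minus Lyso -2.12, SE 0.24, edgeR adjusted p = 4.67e-05). T and NK cell markers were also higher in Lyso than in Tumor, and their part in this value was not tested. Ralgds, an exchange factor for Ral GTPases, was lower by 1.23 in the same contrast. Of 9 Wnt effectors tested, 2 were higher and 3 lower (Tcf7, Lef1 and Axin2, of which the last 2 lost their call when single libraries were left out), and the abundant Ctnnb1, β-catenin, had an adjusted p of 0.832 (edgeR). Fibroblast growth factors and their receptors gave 5 higher and 1 lower of 8 tested, with a median of 2.61, or 2.35 with genes at the floor set to their bound. Fgfr1 had 0.660, 1.03 and 0.972 CPM in Lyso and 51.36, 40.06 and 33.9 CPM in Tumor (log2 fold change 5.53), and Fgf7, a ligand made by mesenchymal cells, rose by 4.58. Fgfr3 went the other way, with 25.55, 29.99 and 28.1 CPM in Lyso and 2.93, 1.21 and 0.706 CPM in Tumor (-4.21, adjusted p = 0.00169, edgeR). Among 14 ERK feedback genes, 3 were higher and 1 lower.

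Genes that respond to low oxygen were higher in Tumor. Of 28 glycolysis and hypoxia genes, 13 were higher and 1 was lower, with a median of 0.99. The number higher was 11 to 14 with any 1 library left out and 8 to 16 under the other settings. Car9, a carbonic anhydrase and a standard hypoxia marker, had 6.51, 3.73 and 6.24 CPM in Lyso and 118.3, 238.3 and 254 CPM in Tumor, a log2 fold change of 5.21 (SE 0.83, edgeR adjusted p = 0.000653). Bnip3, a mitophagy receptor, rose by 3.76, Pdk1, which keeps pyruvate from the mitochondria, by 2.98, Ndrg1 by 2.67 and the glucose transporter gene Slc2a1 by 1.88. Vegfa, the vessel growth factor, had 29.64 to 35.26 CPM in Lyso and 265.7 to 290.7 CPM in Tumor (log2 fold change 3.10), but 197 CPM in WT 1 against 17.31 and 18.1 CPM in WT 2 and 3. The call for Vegfa was lost without Lyso 3 (adjusted p = 0.0504, edgeR), and that for Slc16a3 whichever library was left out (largest adjusted p 0.0967, edgeR). The abundant glycolytic enzymes did not pass the thresholds: Pkm had 2235 and 3107 CPM on average in Lyso and Tumor (adjusted p = 0.238, edgeR) and Aldoa 1786 and 2682 CPM (0.0867). Eno2, the neuronal enolase, was the lower gene, with 56.69 ± 2.92 CPM across Lyso libraries and 15.35 ± 1.22 CPM across Tumor libraries (SD, n = 3 for each). The Relapsed lines differed among themselves, with 67.57, 10.64 and 3.89 CPM for Car9.

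Several p53 targets were lower in Tumor. Of 14 tested, 5 were lower and 1, Plk2, was higher. Ccng1, cyclin G1, had 429.3, 472.8 and 469.8 CPM in Lyso, 148.9, 134.1 and 111.8 CPM in Tumor and 303.1 to 420.9 CPM in WT, a log2 fold change of -1.80 (SE 0.21, edgeR adjusted p = 6.1e-05) between Tumor and Lyso. Phlda3, an inhibitor of AKT, fell by 1.56 and Aen, a nuclease, by 1.10. Cdkn1a, the cell cycle inhibitor p21, had 375.4 to 466.2 CPM in Lyso and 130.9 to 202.8 CPM in Tumor, but its call was lost in 5 of the 6 fits without 1 library (largest adjusted p 0.103, edgeR). Without Tumor 3 or without Tumor 4, 3 of the 14 were lower. Mdm2, another direct target, had 118.2 and 121.4 CPM on average in Lyso and Tumor.

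Genes of melanoma dedifferentiation, a state of low pigment and mesenchymal traits, gave 9 higher of 15 tested and none lower, with a median of 3.36. Axl, a receptor kinase of this state that Lyso cells already expressed, had 19.8, 18.35 and 18.06 CPM in Lyso and 67.94, 76.29 and 116 CPM in Tumor (log2 fold change 2.21, adjusted p = 0.000949, edgeR). Egfr, Twist1 and Wnt5a had no count in Lyso, WT or Relapsed and means of 25.02, 4.97 and 2.85 CPM in Tumor. Fibroblasts express these 3 genes as well, and fibroblast markers were also higher in Tumor. The part of fibroblasts in these values was not tested. Mbp, a myelin gene on the Schwann cell list, had 26.68, 27.66 and 28.91 CPM in Lyso and 350.1, 400.1 and 218.4 CPM in Tumor (log2 fold change 3.54); the Relapsed lines had a mean of 261.2 CPM.

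Few genes of the core growth programs were called. Of 24 DNA replication and 22 mitosis genes none was called, with medians of -0.07 and -0.30, and the same held for 26 cholesterol and fatty acid genes (-0.16) and 76 ribosomal protein genes (0.01). Of 82 nuclear genes of oxidative phosphorylation tested, 1 was called, Ndufa4l2 (at least 37.2-fold higher), a subunit-like gene that hypoxia induces. Small shifts were present below the fold threshold. Summed levels were lower in Tumor without overlap for DNA replication (3446 to 3535 CPM in Lyso, 3025 to 3421 CPM in Tumor). The same held for mitosis (3549 to 3602 and 2824 to 2996 CPM) and oxidative phosphorylation (11850 to 12420 and 10780 to 11180 CPM). WT sums of these lists were 2353 to 4806, 3003 to 4232 and 10610 to 12870 CPM in that order. Among their single genes, 14 of 24, 15 of 22 and 49 of 82 did not overlap, against 54.9% of all genes tested. Sums of the ribosomal and cholesterol lists overlapped. At an adjusted p of 0.05 alone, without the fold threshold, the DNA replication list still had no call, the ribosomal proteins had 2 lower, mitosis had 4 lower, cholesterol synthesis had 2 higher and 3 lower, and oxidative phosphorylation had 2 higher and 14 lower (edgeR). Of 17 ATF4 targets, 3 were higher and none lower, with a median of 1.04, and 9 were higher when only the compared groups were fitted or no filter on low counts was used. Their summed level was 1934 to 1985 CPM in Lyso, 3394 to 4782 CPM in Tumor and 1700 to 7376 CPM in WT. List medians against WT were 0.05 in Tumor and -0.91 in Lyso. Of 15 unfolded protein response genes, 2 were higher and none lower, with a median of 0.59. Sums were 5801 to 6254 CPM in Lyso, 8395 to 11740 CPM in Tumor and 6288 to 12360 CPM in WT. Medians against WT were 0.07 in Tumor and -0.63 in Lyso for this list. Atf4 lost its call whichever library was left out, and Herpud1 lost it without Tumor 1 or any Lyso library. Dnajb9, a chaperone of the endoplasmic reticulum, had 31.5 ± 0.861 CPM across Lyso libraries and 133.1 ± 45.5 CPM across Tumor libraries (SD, n = 3 for each).

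Transcripts of the mitochondrial genome were lower in Tumor, 8 of 19 tested and none higher, with a median of -1.05, or -0.93 with the gene at the floor set to its bound. The mitochondrial transcript mt-Cytb, cytochrome b of complex III, had 24660, 16340 and 16720 CPM in Lyso, 7500, 6911 and 5842 CPM in Tumor and 10560 to 11830 CPM in WT, a log2 fold change of -1.51 (SE 0.26, edgeR adjusted p = 0.00118). Lyso 1 was highest for every mitochondrial mRNA called, and without it 4 of the 8 remained. Against WT the list gave 2 higher genes in Lyso and none called in Tumor. The transcripts mt-Co2, mt-Co3, mt-Atp6 and other mitochondrial mRNAs, which every cell uses, are listed at or near 0 in all libraries and give no information.

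Among the single genes lower in Tumor, the smallest p-values belonged to genes of moderate level. Usb1, an exonuclease that trims the U6 spliceosomal RNA (chromosome 8, 95332284 to 95347507), had 114.2, 101.7 and 99.69 CPM in Lyso, 33.16, 36.23 and 33.66 CPM in Tumor and 48.24 to 53.77 CPM in WT (log2 fold change -1.61, SE 0.11, edgeR adjusted p = 5.53e-07). Trpv2, a cation channel, had 193.1 CPM on average in Lyso and fell by 1.83, and Daxx, a histone chaperone that interferon induces, fell by 1.46. Rhod, a small GTPase of endosomes, had 79.08 to 84.2 CPM in Lyso, 15.9 to 20.8 CPM in Tumor and 46.41 to 73.3 CPM in WT, so Tumor lay below both. Bcan, the proteoglycan brevican, had the largest fall among genes for which at least 1 Tumor library exceeded the floor, with 48.84, 49.74 and 49.0 CPM in Lyso, 0.325, 0.805 and 0.471 CPM in Tumor and 5.66 to 21.96 CPM in WT (log2 fold change -6.41, SE 0.64, edgeR adjusted p = 1.7e-05). Cdh6, a cadherin, had 26.36 to 28.43 CPM in Lyso against 0 to 3.06 CPM in Tumor and 0.566 to 2.24 CPM in WT. Among the highest by fold on the other side, Ptx3, a secreted pattern-recognition protein, and Cd34, a sialomucin of vessels and fibroblasts, had no count in Lyso and were at least 341-fold and 287-fold higher.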

How the data were processed

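RNA was sequenced as mRNA libraries on a NextSeq instrument. The authors deposited 1 table of raw read counts per gene, and the submitters' processing notes name fastp 0.19.6, STAR 2.7.1a, DESeq2 1.24.0 and the mouse build GRCm38. The annotation release and the strand setting of the counting are not given in the sources used here. Of 54232 genes, 25258 had no count in any library, and 54165 identifiers were matched to GENCODE. The 4 leading rows that hold reads not assigned to genes (unmapped, multimapping, without a feature or ambiguous) were left out, and 36.17% to 39.36% of reads fell on genes.

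Genes were filtered by group with filterByExpr, normalised by TMM and fitted in edgeR 4.0.16 (R 4.3.3) by the quasi-likelihood test with all 12 libraries in 1 model, and Tumor was contrasted with Lyso. Genes with a Benjamini-Hochberg adjusted p under 0.05 and a log2 fold change over 1 in size were called. CPM values use TMM library sizes, and a fold given as "at least" sets the Tumor mean against 3 counts in a Lyso library of mean size. On simulated counts for this comparison over 14695 genes, all 200 genes changed by 2 on the log2 scale were recovered, and 7 others were called. The simulation gave every gene the same spread and changed only better expressed genes. It therefore does not cover genes at the floor or groups of uneven spread. The groups, the gene lists and the rule for named genes were chosen with earlier results of these data known. The rule took the 10 called genes without overlap in each direction with the smallest p. It added the 10 with the largest fold among those with a mean of at least 10 CPM in the higher group. Up to 4 called and 2 uncalled members per list were also taken, and Stat3, Egr1, Socs3, Ralgds, Tcf7 and Cd274. Genes outside it, among them Axl, Cdkn1a, Ciita, Cxcl10, Fn1, Jun, Klf2, Pdgfra, Psmb8, Tap1 and Vegfa, were chosen after their values were seen.

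Replicate numbers in the labels were checked for pairing: deviations of same-numbered libraries correlated at -0.004 (Tumor 1 and Lyso 1) and 0.011 (Tumor 3 and Lyso 3). With WT the values were -0.022 to 0.027, except 0.122 for WT 1 and Tumor 1. No sign of pairing was seen between Tumor and Lyso, but so few pairs cannot exclude a shared batch. Nothing in the labels says that replicates are separate animals or cultures, so p-values measure the spread between these libraries, which may be technical. Alternatives were other scalings, filters, fits without 1 library, thinned Lyso counts, a replicate block, glmTreat and DESeq2 1.42.0. In counts of called genes, a gene without an adjusted p in DESeq2 was taken as not called there.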

Additional observations from a re-analysis of the deposited data

How the results depend on the processing

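No gene called higher or lower between Tumor and Lyso changed direction under any of the alternatives run. Against 1311 higher and 618 lower genes, glmTreat gave 801 and 155, a filter of 10 counts in each of the compared libraries gave 590 and 339 of 11467 genes tested, and an adjusted p of 0.05 alone gave 2121 and 1570. The filter of 10 counts removes genes that Lyso cells lack, so fibroblast markers fell from 10 higher to 3. The other settings stayed within 1.5 times, among them a replicate block (1011 and 508), Lyso thinned to the Tumor depth (989 and 493) and DESeq2 (1341 and 542). With any 1 library left out, the counts were 1137 to 1234 higher and 461 to 542 lower. The median over all genes moved by no more than 0.034 under other scalings. The block rests on shared numbers, for which the correlations gave no sign of pairing between Tumor and Lyso.

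Counts against WT were less stable. The 329 genes lower in Tumor than in WT became 211 without WT 3 and 219 without Tumor 4, over a range of 211 to 408. The 362 higher and 86 lower genes in Lyso became 567 and 262 with no filter on low counts; without 1 library they were 236 to 382 higher, the least without Lyso 1, and 30 to 131 lower, with 131 without WT 1, 50 without WT 3 and 39, 31 and 30 without Lyso 1, 2 and 3. Of 152 named genes called, 111 kept their call in all alternatives. Depth limits Tumor more than Lyso, since 3 counts stand for 0.594 to 0.967 CPM there.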

Other observations

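Genes of bone morphogenetic protein (BMP) signalling were examined after their values were seen, as several led the lower genes by fold. Of 25 listed, 20 were tested, of which 7 were lower in Tumor than in Lyso and 4 higher, with a median of -0.30. Id1, an inhibitor of differentiation factors and a direct target of BMP receptors, had 68.6, 85.0 and 88.4 CPM in Lyso and 0.975, 2.21 and 1.65 CPM in Tumor (log2 fold change -5.56, standard error 0.74, adjusted p = 0.00017, edgeR). Id3 had 281.2, 288.2 and 286.2 CPM in Lyso and 6.83, 7.85 and 12.7 CPM in Tumor (-4.95). Smad6, a feedback inhibitor, fell by 4.38 and Atoh8 by 4.39. The higher genes were the receptor gene Acvrl1 (1.17) and the secreted BMP antagonists Grem1, Chrd and Fst, at least 6.62-fold, 7.1-fold and 49.7-fold higher. Another antagonist, Nog, went the other way, with 2.19 to 3.21 CPM in Lyso and no count in Tumor, at least 3.47-fold lower (adjusted p = 0.0321, edgeR), and it lost its call whichever library was left out. WT libraries disagreed: Id1 had 2.26 CPM in WT 1 against 35.9 and 26.5 CPM in WT 2 and 3, and Id3 had 13.0 CPM against 214.5 and 160.1 CPM, so WT gives no single reference level for these genes.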
